A study of Homo sapiens with 4 samples.

Results

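The genes described here are 7 immediate-early and MAPK feedback genes, KLF4, JUNB, IER2, DUSP1, DUSP6, SPRED1 and PPP1R15A, out of 6763 genes with a line in the authors' deposited table. Each of the 7 had 1 listed m6A peak, so 7 of 9466 peaks are described. The genes were chosen by name, with their input levels and m6A values in these same libraries already known, so the values below are a description and carry no test. BEAS-2B, an epithelial cell line established from human bronchus, carried either a METTL16-overexpressing plasmid or an empty plasmid. From each of the arms, 1 input RNA library and 1 library of RNA fragments pulled down with an m6A antibody (MeRIP-seq) were made, so 4 libraries stand in groups of 1. No difference given here has a replicate check, and a difference between the arms cannot be told apart from a difference between single libraries.

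Immediate-early genes are transcribed within minutes of a growth factor, cytokine or stress signal, without the need for new protein synthesis. Much of that signal runs through the MAPK cascades, in which a relay of kinases such as ERK passes it to transcription factors, and their mRNAs are usually short-lived. Some of the induced genes encode brakes on the same cascade, such as dual-specificity phosphatases, which remove phosphates from MAP kinases, and Sprouty-related proteins, which act on RAS. N6-methyladenosine (m6A) is a base modification of mRNA that can affect its decay, and METTL16 is an RNA methyltransferase that places m6A on U6 snRNA and on MAT2A mRNA.

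Input levels were given in FPKM, which scales fragments to transcript length and to the mapped fragments of a library, without counts, so the depth of the libraries is unknown. METTL16 had 0 lines in the table, so the overexpression named by the labels was not checked. MAT2A stood at 95.1 FPKM with the METTL16 plasmid and 96.8 FPKM with the empty plasmid. Only genes with a listed peak have a level. Of 11 epithelial markers 3 had a line: the keratin genes KRT18, with 59.0 and 59.6 FPKM, and KRT8, with 54.2 and 46.1 FPKM, and the integrin gene ITGB4, with 0.69 and 0.78 FPKM. Of 8 mesenchymal markers 3 had a line: VIM, with 510.0 and 499.0 FPKM, COL1A1, with 2.28 and 2.33 FPKM, and PDGFRB, with 1.55 and 1.51 FPKM. None of 3 endothelial markers had a line. Of 5 leukocyte markers only CD68 had one, at 57.7 FPKM with the METTL16 plasmid and 41.6 FPKM with the empty plasmid. CD68 encodes a lysosomal protein that is not limited to leukocytes, and its part in the differences below was not tested.

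All 7 genes had a higher input level with the METTL16 plasmid than with the empty plasmid, and 6 of them were at least 1.2-fold higher on the log2(FPKM + 1) scale. SPRED1 was the exception, with nearly equal levels. The median change of the 7 genes was 0.43 on this log2 scale, against -0.02 over the 5467 genes that reached 1 FPKM in either input. Of those 5467 genes, 3.46% passed 1.2-fold on the higher side and 3.44% on the lower side, and none of the 7 genes was among the lower ones. As the genes were chosen with these values known, nothing is read from the contrast between 6 of 7 and 3.46%.

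Among the transcription factors, KLF4 showed the largest change of the 7 genes. It encodes a zinc finger factor known for its part in epithelial differentiation and in growth arrest. KLF4 had 14.8 FPKM in the METTL16 plasmid input and 8.62 FPKM in the empty plasmid input, a ratio of 1.71 and a log2 change of 0.71 with a pseudocount of 1 FPKM. It took place 20 from the highest among the 5467 genes, and place 2 of 654 in its FPKM bin, 1 of 10 equal groups of genes by mean FPKM. JUNB, a subunit of the AP-1 transcription factor, had 7.41 and 5.26 FPKM, a ratio of 1.41. IER2, an immediate-early gene that encodes a small nuclear protein, had 12.3 and 8.91 FPKM, a ratio of 1.38. On the log2(FPKM + 1) scale JUNB and IER2 had the same change to 2 decimals, 0.43, and they took places 59 and 61.

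PPP1R15A was the most abundant of the 7 genes in both inputs. Its product, GADD34, brings protein phosphatase 1 to the translation factor eIF2alpha and so ends the translation block of the integrated stress response. PPP1R15A had 70.3 FPKM with the METTL16 plasmid and 49.9 FPKM with the empty plasmid, a ratio of 1.41, a log2 change of 0.49 and place 42. The difference of 20.4 FPKM was the widest of the 7 in absolute terms, while KLF4 had the higher ratio.

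Of the MAPK brakes, both phosphatase genes were past 1.2-fold and SPRED1 was not. DUSP1, a nuclear phosphatase of p38, JNK and ERK, had 38.7 FPKM with the METTL16 plasmid and 29.6 FPKM with the empty plasmid, a log2 change of 0.38 and place 83. DUSP6, a cytoplasmic phosphatase with a preference for ERK, had the lowest levels of the 7 genes, 3.99 and 3.11 FPKM. At a ratio of 1.28 its log2 change with the pseudocount was 0.28, just past the 1.2-fold mark, and it took place 165. SPRED1, which acts with neurofibromin to hold RAS inactive, had 6.72 and 6.67 FPKM, a ratio of 1.01. It took place 2139 of 5467 and lay within the bulk of all genes.

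The order of levels among the 7 genes differed between the inputs at a pair of places. In the empty plasmid input the order from the highest was PPP1R15A, DUSP1, IER2, KLF4, SPRED1, JUNB and DUSP6. In the METTL16 plasmid input KLF4 stood above IER2 and JUNB above SPRED1. With 1 library each, whether these neighbours differ beyond replicate spread is unknown. The expression p-values in the authors' deposited table ran from 0.21 for KLF4 to 0.93 for SPRED1, and the q-value there was 1 for each of the 7 genes. Those p-values compare 1 library with 1 library.

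**Figure D1:**
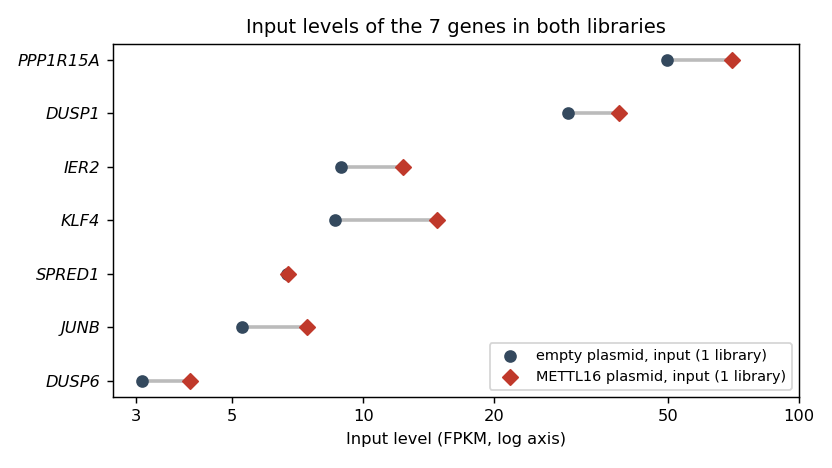
Input levels of the 7 genes in FPKM (log axis), 1 circle for the empty plasmid library and 1 diamond for the METTL16 plasmid library, joined by a line per gene. The diamond lies to the right for 6 genes, from 3.11 to 3.99 FPKM for DUSP6 up to 49.9 to 70.3 FPKM for PPP1R15A, while the symbols of SPRED1 nearly coincide.

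**Figure D2:**
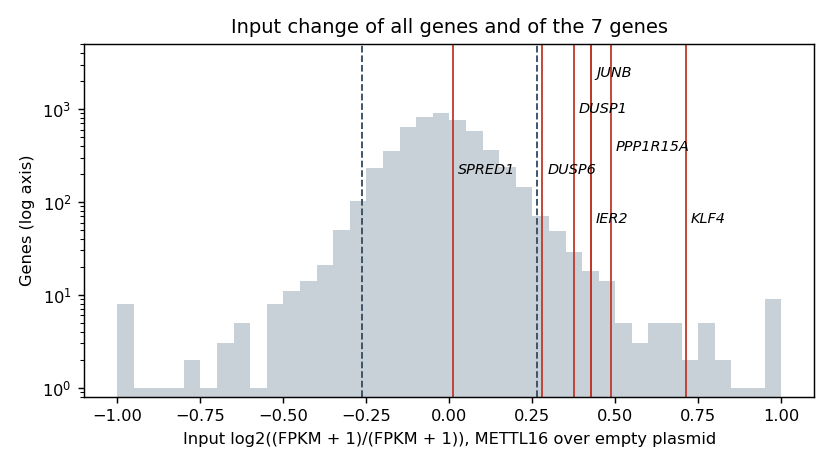
Histogram of the input change, as log2((FPKM + 1)/(FPKM + 1)) of the METTL16 over the empty plasmid, for 5467 genes (log count axis, values beyond -1 and 1 gathered in the end bins). Red lines mark the 7 genes and dashed lines the 1.2-fold marks. SPRED1 lies in the centre at 0.01 and the others between 0.28 and 0.71.

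By its input change, KLF4 had these neighbours among 3163 genes with a symbol that reached 5 FPKM in both inputs, compared over 2 libraries. Above it stood WDR74, with 51.2 and 7.12 FPKM, and the pseudogene EIF1AXP1, with 14.7 and 8.19 FPKM. Below it stood PMAIP1, which encodes the pro-apoptotic protein NOXA, with 61.4 and 38.2 FPKM, and NOCT, which encodes nocturnin, with 28.1 and 17.6 FPKM. Log2 changes of the neighbours below, 0.67 and 0.65, and of EIF1AXP1, 0.77, were close to the 0.71 of KLF4. WDR74, at 2.69, was a neighbour in order only and far from KLF4 in value.

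Promoter sequences are shown because the input levels of most of these genes differed in the same direction, and cAMP response elements are known in promoters of immediate-early genes. Sequences are the 250 bases before the RefSeq gene start (GRCh38.p14) on the strand of the gene, and the table held all 7 genes. The core searched was TGACG on both strands, which also lies inside the longer palindrome TGACGTCA, the cAMP response element. The motifs were chosen with the sequences in view. TGACG or its complement occurred in the promoters of KLF4, JUNB, IER2, DUSP1 and PPP1R15A, 5 of the 7, against 21.2% of all 35116 RefSeq promoters. Of 6525 promoter entries matched by symbol to genes at 1 FPKM or more in either input, 28.4% held it. Those entries outnumber the 5467 such genes, so they are not 1 per gene. TGACGTCA occurred in the promoters of DUSP1 and PPP1R15A, against 1.65% of all promoters and 2.57% of those 6525. TATAAA, on either strand, occurred in JUNB, DUSP1 and PPP1R15A, against 10.7% and 5.79%. The AP-1 motif TGANTCA (6.57% of all promoters and 4.64% of those 6525) and the CArG box of serum response factor (1.16% and 1.24%), both searched on both strands, were in none of these 7 windows. In the lines below, capitals mark TGACG, its complement CGTCA, or TATAAA. PPP1R15A and DUSP1 are shown for the full palindrome, KLF4 for the largest input change, and DUSP6 because a peak of another gene reaches into its promoter.
PPP1R15A, chr19:48872171-48872420, plus strand: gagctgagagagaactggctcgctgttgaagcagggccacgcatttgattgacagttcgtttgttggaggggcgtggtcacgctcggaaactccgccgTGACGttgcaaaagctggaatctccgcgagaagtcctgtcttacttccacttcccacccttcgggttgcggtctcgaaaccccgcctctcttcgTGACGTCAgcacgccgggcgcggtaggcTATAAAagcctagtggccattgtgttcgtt
DUSP1, chr5:172771196-172771445, minus strand: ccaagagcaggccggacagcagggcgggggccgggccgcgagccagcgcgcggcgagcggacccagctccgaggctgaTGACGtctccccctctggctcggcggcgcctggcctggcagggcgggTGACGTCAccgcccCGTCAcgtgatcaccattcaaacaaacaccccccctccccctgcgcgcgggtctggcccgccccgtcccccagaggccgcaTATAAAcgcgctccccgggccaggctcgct
KLF4, chr9:107489770-107490019, minus strand: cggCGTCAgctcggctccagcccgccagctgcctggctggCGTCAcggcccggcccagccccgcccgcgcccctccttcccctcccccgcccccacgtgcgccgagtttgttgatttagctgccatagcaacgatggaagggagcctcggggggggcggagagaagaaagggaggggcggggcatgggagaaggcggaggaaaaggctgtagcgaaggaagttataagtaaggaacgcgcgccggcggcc
DUSP6, chr12:89352502-89352751, minus strand: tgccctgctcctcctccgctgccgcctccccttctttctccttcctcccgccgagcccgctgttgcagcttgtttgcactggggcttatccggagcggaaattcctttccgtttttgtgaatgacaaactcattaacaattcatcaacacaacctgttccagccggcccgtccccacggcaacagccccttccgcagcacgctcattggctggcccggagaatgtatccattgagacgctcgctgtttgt
PPP1R15A and DUSP1 each held TGACGTCA once, at 58 to 51 and 125 to 118 bases before the start, and a TATAAA at 30 to 25 bases before it. DUSP1 held further TGACG matches at 172 to 168 and 111 to 107 bases before the start. KLF4 held the complement at 247 to 243 and at 210 to 206 bases before its start. DUSP6, with a higher input level, and SPRED1, with nearly equal levels, held neither TGACG nor TATAAA in this window. A match of letters does not show that a factor binds there.

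All 7 listed peaks had a lower m6A value with the METTL16 plasmid, and 2 of them, those of SPRED1 and DUSP6, were differential. A differential peak has a p-value below 0.05 and at least a 2-fold change in the authors' deposited table. Of all 9466 listed peaks, 71.5% had a value below 0, 43.7% were differential in either direction and 27.2% were differential and lower. The genes were chosen with these values known, so nothing is read from the shares. Their median log2 fold change was -0.31, against -0.38 over all listed peaks. The other 5 peaks were between 1.11-fold and 1.34-fold lower. Scaling between libraries decides the sign of these small values: centred on the median of all listed peaks, KLF4, IER2, DUSP1 and PPP1R15A turn positive, and no peak of the 7 genes stays differential.

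KLF4, JUNB, IER2 and DUSP1 had peaks that the authors labelled stop codon. Positions are on hg38 and the start is given 1-based. The KLF4 peak (chr9:107484852-107489546, minus strand) spanned 4695 bases, introns included, or 95.5% of the RefSeq gene span, so its stop codon label does not locate the methylated base. In the authors' deposited table it had a log2 fold change of -0.25 with an adjusted p of 0.0086. The JUNB peak (chr19:12791686-12793310, plus strand) spanned 88.8% of the gene, so its label does not locate the methylated base either. Its value in the authors' deposited table was -0.42 with an adjusted p of 0.030. The IER2 peak (chr19:13153508-13154907, plus strand) took the 3' part of the gene, 31.1% of its span, with -0.31 and an adjusted p of 0.0063 in the authors' deposited table. The DUSP1 peak (chr5:172768096-172769020, minus strand) also took the 3' end, 29.8% of the gene span, with -0.14 and an adjusted p of 0.14 in the authors' deposited table. These 4 values lie around -0.29, the median of the 1372 stop codon peaks, with 28.9% of those peaks below JUNB and 77.4% below DUSP1.

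PPP1R15A had its listed peak inside the gene, labelled exonic by the authors (chr19:48873319-48874018, plus strand, 700 bases). It had the smallest adjusted p of the 7 peaks in the authors' deposited table, 0.0032, at a log2 fold change of -0.25. Of the 1297 exonic peaks, 50.3% lay below it, so it sat at the middle of its class. Set against the 156 exonic peaks in the same bin of 10 by input FPKM, whose median was -0.10, it stood lower, with 40 of them below it.

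DUSP6 and SPRED1 had the differential peaks, and these lay away from the 3' end, as did the PPP1R15A peak, which was not differential. The KLF4 and JUNB peaks reached the 3' end but also covered most of the 5' part of their genes. The DUSP6 peak (chr12:89352018-89352492, minus strand, 475 bases) was labelled start codon and began 9 bases after the RefSeq gene start. Its log2 fold change in the authors' deposited table was -1.10, which is 2.15-fold lower, with an adjusted p of 0.069. Among 56 start codon peaks in the same FPKM bin, 24 were differential and 13 lay below DUSP6. The SPRED1 peak (chr15:38325986-38326285, plus strand, 300 bases) was labelled intronic and lay 73150 bases after the gene start. Its log2 fold change in the authors' deposited table was -1.21, which is 2.31-fold lower, with an adjusted p of 0.018. Of 92 intronic peaks in the same FPKM bin, 86 were differential and 48 lay below it, so the SPRED1 value is in the middle of like peaks. SPRED1 is also the gene with near-equal input.

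**Figure D3:**
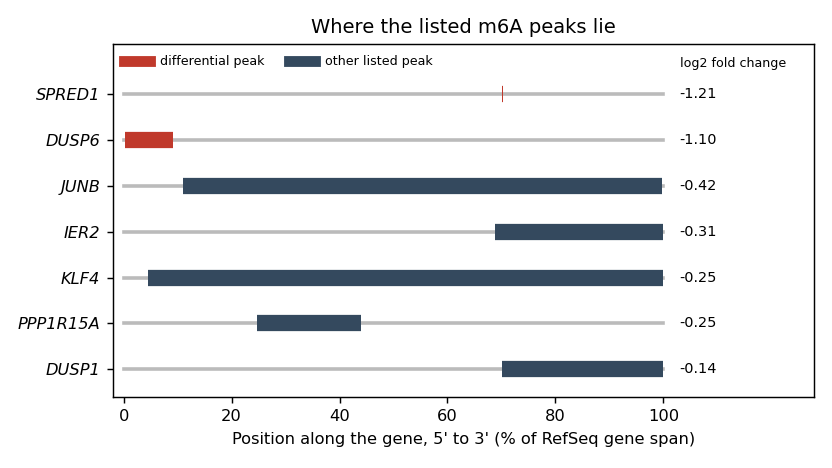
Position of the listed m6A peak of each gene, as a percent of the RefSeq gene span from 5' to 3', with the deposited log2 fold change on the right. Differential peaks (red) are those of SPRED1 (-1.21) and DUSP6 (-1.10), and the peaks of IER2, DUSP1, KLF4 and JUNB reach the 3' end.

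Of the 7 peaks, 2 shared bases with a peak of an unnamed noncoding gene on the opposite strand. Over all listed peaks, 6.75% shared bases with a peak of another gene. The DUSP6 peak shared 303 of its 475 bases with a peak of ENSG00000274021 (chr12:89352190-89352664, plus strand). Their values in the authors' deposited table were -1.10 for DUSP6 and -1.06 for ENSG00000274021, 0.05 apart. The input level of ENSG00000274021 was 0.13 and 0.09 FPKM, far below that of DUSP6. Its peak also covered 163 of the 250 bases printed above as the DUSP6 promoter. The IER2 peak shared 686 bases with a peak of ENSG00000267598 (chr19:13153196-13154193, minus strand), at -0.31 for IER2 and -0.23 for the other gene in the authors' deposited table. The library protocol marks strand, while the use of strand in counting is not given in the sources used here. Whether the same reads stand behind both peaks of each pair was not tested.

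No genome sequence was used here, so m6A motifs were searched only where a peak meets the RefSeq promoter sequences, which also hold the first 50 bases after the gene start. This was the case for 41 bases of the DUSP6 peak, all after the start. In those bases GGACT, the most common core of m6A sites, was absent from the DUSP6 strand and present once on the opposite strand. A match on either strand occurs in 7.36% of all RefSeq windows at the same place. The opposite-strand sequence is shown because both peaks cover it, with GGACT in capitals.
ENSG00000274021 strand, chr12:89352452-89352481, plus strand: cttGGACTcagcctcgcacaccccctgcgc
This stretch is 30 bases long, and the match shows only that the letters are there.

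Over all genes at 1 FPKM or more in either input, peaks on genes with a higher input level tended to have lower m6A values. Of the 255 listed peaks on the 189 genes with an input at least 1.2-fold higher, 84.3% had a value below 0, with a median log2 fold change of -0.48. On genes with an input within 1.2-fold these were 72.2% and -0.35, and on genes with an input at least 1.2-fold lower they were 58.5% and -0.27. At stop codons alone the same order held, with medians of -0.36, -0.28 and -0.20 over 55, 1149 and 39 peaks. The 6 genes with higher input are among the first of these classes and are counted in it. Over the peaks of all 7 genes, SPRED1 included, the median was -0.31, against -0.48 in that class over all regions and -0.36 at its stop codons. As 4 of the 7 peaks are stop codon peaks, the -0.48 is not a like comparison. How the authors set the immunoprecipitate against the input is not given in the sources used here, so the 2 measures may share the input libraries, and the order is given with no test.

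**Figure D4:**
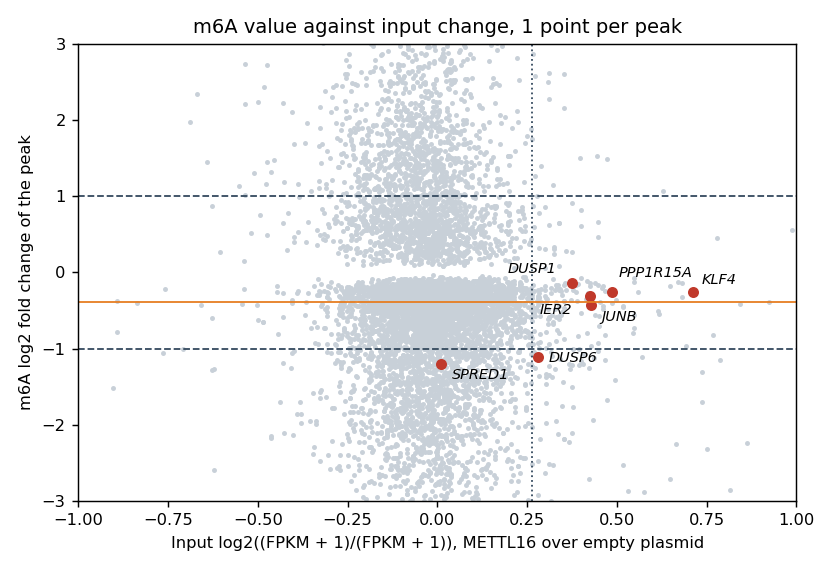
m6A log2 fold change of each listed peak against the input change of its gene, 1 grey point per peak for genes at 1 FPKM or more in either input, with 475 of 7953 peaks outside the axes. Red points are the 7 genes, dashed lines the 2-fold marks, the dotted line the 1.2-fold mark and the orange line the median of all listed peaks (-0.38). Of the 7 genes, 6 lie right of the dotted line and 2 below the lower dashed line.

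The genes of the wider immediate-early list that had a level gave a partly similar picture of input levels. The pathway lists were chosen with earlier results of these data known. Each list is covered only in part. A level was there for 15 of 33 immediate-early symbols, 18 of 31 for MAPK feedback and 25 of 49 for the MAPK cascade. For EGFR ligands and shedding it was 3 of 12, for the integrated stress response 14 of 21 and for mRNA decay 15 of 26. FOS, JUN and EGR1 had no level, and the symbols include some aliases. Of 15 immediate-early genes with a level, 11 were higher with the METTL16 plasmid, 5 of them past 1.2-fold. None was lower past 1.2-fold, and the median log2 change was 0.21. Over all 5467 genes the median was -0.02, and 3.46% passed 1.2-fold on the higher side. The share of all genes that were higher by any amount was not counted, so nothing is read from such counts here or below. Leaving out KLF4, JUNB and IER2, 8 of 12 were higher, 2 of them past 1.2-fold, with a median of 0.14. KLF6, a zinc finger factor related to KLF4, had 56.6 and 43.5 FPKM. The orphan nuclear receptor gene NR4A1 had 1.28 and 0.87 FPKM, a level at which the pseudocount weighs. Under 1.2-fold on the log2(FPKM + 1) scale were IER5 with 14.6 and 12.2 FPKM and the AP-1 gene FOSL1 with 144.8 and 123.2 FPKM. So was the matricellular gene CCN1 with 289.7 and 249.6 FPKM. Without the pseudocount the FPKM ratio of IER5 was 1.202, just past the mark. CEBPB went the other way, with 15.1 and 17.4 FPKM. Of the 14 peaks on these 12 genes, 12 had a value below 0 and 2 were differential, against 71.5% and 43.7% of all peaks, and all 6 stop codon peaks lay between -0.26 and -0.15 in the authors' deposited table. The differential peaks were an intronic one of NR4A1 at 3.47 and a 5'UTR one of MAFK at -2.50 in the authors' deposited table. That NR4A1 peak has no adjusted p there, and the adjusted p of the MAFK peak was 0.11.

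Among 17 genes of MAPK and receptor feedback, 15 were higher, 4 of them past 1.2-fold, with a median log2 change of 0.09. The median over all 5467 genes was -0.02, with 3.46% past 1.2-fold on the higher side. Without DUSP1, DUSP6 and SPRED1, 12 of 14 were higher and 2 of them past 1.2-fold, DUSP10 and SPRY4. DUSP10, a phosphatase of p38 and JNK, had 51.4 and 38.9 FPKM, and SPRY4, a Sprouty inhibitor of RAS signalling, had 10.7 and 8.29 FPKM. The EGFR inhibitor gene ERRFI1 had 22.3 and 19.2 FPKM, the ERK phosphatase gene DUSP5 27.6 and 23.9 FPKM, and SPRED3 2.09 and 1.78 FPKM. DUSP7 had 6.33 and 7.04 FPKM. Of 21 peaks on these 14 genes and on SPRY1, which was under 1 FPKM in both inputs, 20 had a value below 0, against 71.5% of all peaks. Of these peaks 8 were differential, 7 of them lower, against 43.7% and 27.2% of all peaks. In the authors' deposited table, PTPRE, a receptor-type phosphatase gene, had 3'UTR values of -1.65 and -2.35. The 3'UTR peak of RASAL2 stood at -1.85 in the authors' deposited table. The ubiquitin ligase gene CBLB had differential peaks both ways in the authors' deposited table, at 1.65 in an exonic peak and at -2.49 and -4.12 in 3'UTR peaks. Both PTPRE peaks and the exonic CBLB peak had an adjusted p below 0.05 there. For the RASAL2 peak it was 0.11 and for the CBLB peak at -2.49 it was 0.12, while the CBLB peak at -4.12 has none.

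The kinases and receptors of the MAPK cascade itself were close to the median gene. Of 24 such genes, 8 were higher and 16 lower, none past 1.2-fold in either direction, with a median log2 change of -0.02. SHC1, an adaptor of receptor tyrosine kinases, had the highest change of the list, with 52.7 and 47.3 FPKM, and MET followed with 63.6 and 59.2 FPKM. EGFR, the receptor of the epidermal growth factor family, had the lowest, with 26.2 and 30.5 FPKM. MAP3K3 had 9.86 and 11.4 FPKM, MAP3K7 5.08 and 5.73 FPKM, and MAPK8, which encodes JNK1, 3.28 and 3.73 FPKM. Of 37 peaks on these 24 genes and on FGFR2, which was under 1 FPKM in both inputs, 28 had a value below 0 and 21 were differential, 15 lower and 6 higher, against 71.5% and 43.7% of all peaks. The intronic peak of MAP3K7 stood at 4.71 in the authors' deposited table. In the authors' deposited table, MAPK8 had values of 2.02 in the 3'UTR and 3.38 in an intron. The 3'UTR peak of MAPK8 had an adjusted p of 0.047 there, while the intronic peaks of MAP3K7 and MAPK8 have none. Only 3 genes of the EGFR ligand and shedding list had a level. Among them LIF, a cytokine gene that is no EGFR ligand, was past 1.2-fold lower with 18.3 and 25.3 FPKM. The sheddase genes ADAM17 and ADAM10 had 6.16 and 5.60 FPKM and 8.49 and 8.60 FPKM.

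Other genes of the integrated stress response did not share the higher input of PPP1R15A past 1.2-fold. Of 14 genes, 7 were higher and 7 lower, and PPP1R15A was the one past 1.2-fold on the higher side. The transcription factor gene DDIT3, known as CHOP, had 34.7 and 30.1 FPKM, a log2 change of 0.20. ASNS, the asparagine synthetase gene, was past 1.2-fold lower, with 9.55 FPKM in the METTL16 plasmid input and a ratio of 0.796. TRIB3 had 11.5 and 12.8 FPKM, DDIT4 32.1 and 34.1 FPKM, EIF2S1, which encodes eIF2alpha, 25.8 and 24.4 FPKM, and the kinase gene EIF2AK3 1.78 and 1.65 FPKM. The median of the other 13 genes was -0.02, the same to 2 decimals as the median gene. Of their 21 peaks, 14 had a value below 0 and 5 were differential, against 71.5% and 43.7% of all peaks. NUPR1 had higher peaks in the authors' deposited table, at 1.54 and 5.13, while 5'UTR peaks of PPP1CB stood at -1.45 and -1.54 and of EIF2AK3 at -1.48. The NUPR1 peak at 1.54 had an adjusted p of 0.030 there, and the one at 5.13 has none. For the PPP1CB peaks the adjusted p was 0.13 and 0.10, and for the EIF2AK3 peak it was 0.095.

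Genes of mRNA decay, which sets how long immediate-early transcripts last, were mixed. Of 15 genes, 9 were higher and 3 of them past 1.2-fold on the log2(FPKM + 1) scale. None was past it on the lower side on that scale, and the median log2 change was 0.02. BTG2, which binds the CCR4-NOT deadenylase and is itself an immediate-early gene, had 15.8 and 11.2 FPKM. ZFP36L1, a protein that binds AU-rich elements, had 45.6 and 36.1 FPKM, and the decapping cofactor gene DCP1A had 16.4 and 12.9 FPKM. DCP2 had 6.75 and 5.63 FPKM, TOB2 15.3 and 13.3 FPKM, and CNOT6L 3.08 and 3.75 FPKM, a ratio of 0.822 without the pseudocount. Of their 22 peaks, 12 were below 0, 10 were above it and 8 were differential, against 71.5% below 0 and 43.7% differential over all peaks. In the authors' deposited table CNOT6L had a 3'UTR peak at 4.56, BTG1 one at 2.78 and CNOT10 an exonic peak at -2.14. These CNOT6L and BTG1 peaks have no adjusted p there, and that of the CNOT10 peak was 0.13. Over all 6 lists, counting each gene once, 13 of 88 genes passed 1.2-fold on the higher side and 2 on the lower side, and 6 of the 13 are among the 7 genes described here. Over all 5467 genes these shares were 3.46% and 3.44%.

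**Figure D5:**
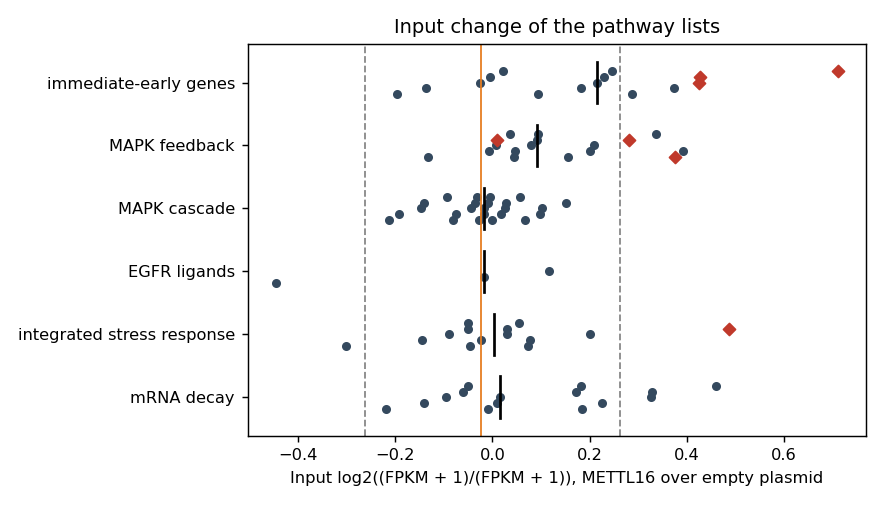
Input change, as log2((FPKM + 1)/(FPKM + 1)) of the METTL16 over the empty plasmid, of the genes of 6 pathway lists, 1 point per gene. Red diamonds are the 7 genes, black bars the list medians, dashed lines the 1.2-fold marks and the orange line the median of 5467 genes (-0.02). Medians run from 0.21 for immediate-early genes and 0.09 for MAPK feedback to -0.02 for the MAPK cascade.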

How the data were processed

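RNA of 4 BEAS-2B libraries, an input and an m6A immunoprecipitate of each arm, was sequenced, and 1 table of the authors' own comparison was used. The submitters' processing notes name fastp 0.19.4 and the build hg38. No source used here names the aligner, the peak caller or the expression program. Per the file headers, the table holds FPKM of both input libraries, the ratio (fold) of these FPKM values and its log2, a log2 fold change of m6A per peak, and p-values and adjusted p-values. In the deposited table every m6A p-value lies below 0.05, so peaks without that support are outside all shares.

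Peak starts in the deposited table count from 0: 495 starts lie 1 base before a RefSeq gene start and 4 on it, while 330 ends lie on a RefSeq end. Starts are therefore printed 1 higher, and spans are 1 base shorter than the deposited length.

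Input changes were log2((FPKM + 1)/(FPKM + 1)), METTL16 plasmid over empty plasmid, for genes at 1 FPKM or more in either input, which understates the change of low genes. A 1.2-fold mark was used for input and a p-value below 0.05 with 2-fold for m6A. Genes and peaks were compared within 10 equal groups by mean FPKM. Python 3.11.15 and pandas 2.3.3 were used, and the calculation of input changes was tested on simulated data. There was 1 library per group, so no test was made, and the depth is unknown. The 7 genes and the pathway lists were chosen with earlier results of these data known. Other genes were named by rule: up to 6 per list by input change, up to 3 by differential peak, and 4 next to KLF4 by input change at 5 FPKM or more in both inputs. For 1 gene named by the rule, values are not reported here. Alternatives were other pseudocounts, centrings, filters and thresholds.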

Additional observations from a re-analysis of the deposited data

How the results depend on the processing

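The count of 6 of 7 genes at least 1.2-fold higher in input was the same with a pseudocount of 0.1 FPKM, with the authors' deposited log2 fold change of expression, and after centring on the median gene or on the median gene of the same FPKM bin. The 13 genes of all lists past 1.2-fold moved by less than 1.5 times under each pseudocount, filter and centring tried. The m6A values of the 7 peaks depended on the scaling, while the count of differential peaks on the pathway lists was 45 in place of 48 after centring on the overall peak median. Of the 7 peaks, 3 stayed below 0 after centring on the overall peak median, 4 after centring within the FPKM bin and 4 after centring within the region label, and 0 stayed differential under each of these centrings. The adjusted p left 1 differential peak of the 2, that of SPRED1, and 12 of the 48 on the pathway lists. With the overall peak median as centre, KLF4 stood at 0.13, IER2 at 0.077, DUSP1 at 0.24 and PPP1R15A at 0.13. Within the FPKM bin, KLF4 stood at 0.062, IER2 at 0.010 and DUSP1 at 0.033. Within the region label, KLF4 stood at 0.032, DUSP1 at 0.14 and PPP1R15A at 0.0042. Centring shifts every value by construction. No paired analysis was possible because each group has 1 library. Motif counts over whole peaks were not run, as no genome sequence was used here. FPKM keeps no counts, so what depth limits could not be set.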
